A study of Homo sapiens with 3 samples.

Results

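The transforming growth factor beta (TGF-beta) and bone morphogenetic protein (BMP) genes described here are 10 genes whose symbols appear among the genes the authors assigned to their merged regions. They are the ligands TGFB1, TGFB2, TGFB3 and BMP4, the receptors TGFBR1, TGFBR2, TGFBR3 and BMPR2, and the latency proteins LTBP2 and LTBP3. They were chosen by name out of 21948 symbols in the table, and 70 of 67965 regions were assigned to them. The cells are LM2, which the labels describe as clones, derived from MDA-MB-231, a human breast cancer line of the triple-negative type, and known for colonising the lung. The libraries are 1 ChIP with an antibody to the replacement histone H3.3 (6 µg on 30 µg of chromatin) and 1 ChIP with an antibody to the canonical histones H3.1 and H3.2 (4 µg on 30 µg), and the input DNA was not analysed here. The column headers carry the tag shGFP for both ChIPs, a treatment that no sample label gives. The regions hold an estimated 7332517 tags of H3.3 and 5897938 of H3.1/H3.2, and the median member region holds 87.9 tags of H3.3 and 43.3 of H3.1/H3.2. No expression was measured, so markers of the cell line could not be checked. Each antibody has 1 library, which leaves nothing to test against, and every interval given covers counting error only.

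TGF-beta ligands are secreted as latent complexes in which a cleaved propeptide shields the dimer. Latent TGF-beta binding proteins tie such complexes to the extracellular matrix until integrins or proteases release the ligand. Released ligand brings type II receptors together with type I receptors, which phosphorylate SMAD transcription factors, and BMPs use a parallel set of receptors. In breast cancer cells TGF-beta is known as an inducer of epithelial-mesenchymal transition and of metastatic colonisation. H3.3 enters chromatin outside replication and is known for its turnover at active promoters and enhancers, whereas H3.1 and H3.2 are placed mainly behind replication forks.

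The sequences just upstream of the starts show where the called regions lay relative to these promoters. Each line gives the 250 bases before a RefSeq start on GRCh38.p14, read 5′ to 3′ on the gene's strand. Capitals mark GC boxes (GGGCGG or its reverse complement CCGCCC), the site of SP1-type factors, and TATA boxes (TATAAA or its reverse complement TTTATA), and no match overlapped another kind. TGFB1, TGFBR1 and BMPR2 are shown because these bases fell between called regions, and TGFBR2 because they ended at a region's edge. TGFB2 and TGFBR3 are shown because the bases lay wholly inside a region called in H3.3 only. Each gene is shown at the RefSeq start nearest the authors' start, except TGFBR1. For TGFBR1 the start farthest from any region was picked out of 8.
TGFB1 (chr19:41353923-41354172, minus strand): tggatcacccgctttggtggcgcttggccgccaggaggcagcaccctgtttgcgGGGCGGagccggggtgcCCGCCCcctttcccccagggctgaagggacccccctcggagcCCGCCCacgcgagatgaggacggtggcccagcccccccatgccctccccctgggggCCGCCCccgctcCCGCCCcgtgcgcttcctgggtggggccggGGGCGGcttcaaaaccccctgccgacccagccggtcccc
TGFBR1 (chr9:99104863-99105112, plus strand): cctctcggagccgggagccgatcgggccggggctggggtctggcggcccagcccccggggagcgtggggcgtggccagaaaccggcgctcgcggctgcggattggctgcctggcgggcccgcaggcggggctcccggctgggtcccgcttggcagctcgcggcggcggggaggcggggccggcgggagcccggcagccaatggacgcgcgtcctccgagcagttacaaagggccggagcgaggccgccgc
BMPR2 (chr2:202376077-202376326, plus strand): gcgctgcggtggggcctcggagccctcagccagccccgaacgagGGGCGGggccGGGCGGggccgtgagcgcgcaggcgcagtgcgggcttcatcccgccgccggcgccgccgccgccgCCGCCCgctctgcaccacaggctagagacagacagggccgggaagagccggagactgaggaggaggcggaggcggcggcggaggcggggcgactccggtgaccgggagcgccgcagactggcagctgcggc
TGFBR2 (chr3:30606351-30606600, plus strand): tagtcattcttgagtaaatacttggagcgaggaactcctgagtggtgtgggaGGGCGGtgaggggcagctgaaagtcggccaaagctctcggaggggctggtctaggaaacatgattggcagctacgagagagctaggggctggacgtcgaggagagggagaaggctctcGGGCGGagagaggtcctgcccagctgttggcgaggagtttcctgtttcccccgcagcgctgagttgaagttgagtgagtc
TGFB2 (chr1:218345086-218345335, plus strand): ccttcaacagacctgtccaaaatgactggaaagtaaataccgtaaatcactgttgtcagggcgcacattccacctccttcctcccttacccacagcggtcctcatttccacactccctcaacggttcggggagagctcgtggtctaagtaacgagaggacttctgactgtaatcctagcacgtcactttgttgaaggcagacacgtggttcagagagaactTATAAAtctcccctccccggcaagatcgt
TGFBR3 (chr1:91886152-91886401, minus strand): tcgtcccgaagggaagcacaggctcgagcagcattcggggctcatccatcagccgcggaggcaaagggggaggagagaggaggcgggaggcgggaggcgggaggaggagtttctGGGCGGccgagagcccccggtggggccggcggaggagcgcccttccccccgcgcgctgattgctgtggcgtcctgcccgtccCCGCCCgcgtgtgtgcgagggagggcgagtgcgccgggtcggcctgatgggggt

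These promoters differed widely in base composition. The TGFB1 stretch held 6 GC boxes and 21 CpG dinucleotides, that of BMPR2 3 GC boxes and 36 CpGs, and that of TGFBR1 no GC box but 35 CpGs. At the TGFBR1 start nearest the authors' start, the stretch held only 4 CpGs and lay wholly inside a region called in H3.3 only. TGFB2 had 11 CpGs, no GC box and 1 TATA box close to its start. At the RefSeq start nearest the authors' start, 7 of the 10 members held a GC box, as did 42.6% of 35116 RefSeq promoter stretches of the same length. A TATA box was found in 1 member and in 10.7% of all stretches. A letter match is a description and not a bound site.

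Starts lay inside a region in some members and in gaps between regions in others. Of 22 listed RefSeq starts of the 10 genes, 15 lay inside a region assigned to their gene, and TGFB1 and BMPR2 were the 2 members with none. The share over all RefSeq starts was not computed, so whether these counts are usual is not known here. The list need not hold every start, as the RefSeq spans of TGFBR3 and BMP4 begin upstream of their listed starts. The TGFB1 start lay 278 bases from the nearest region and the BMPR2 start 273 bases. TGFBR1 has 8 RefSeq starts, of which 4 lay in its H3.3-only region, 3 in the gap that follows, with 34 to 42 CpGs before each, and 1 in an H3.1/H3.2-only region. By the authors' own starts, a region covered the start in 5 of the 9 members with a promoter region, against 60.4% of 17529 genes. The deposited table holds no heights between regions, so levels in the gaps are not known here.

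At promoters, every member with a promoter region was higher in H3.3 than in H3.1/H3.2. A promoter region is one that touches the window from 7500 bases upstream to 2500 bases downstream of the authors' gene start, and the value of a gene is that of the region whose edge lies nearest the start. Heights are the authors' mean pileup over a region, and folds are plain ratios of the heights of both libraries with exact conditional 95% intervals on estimated tags. All 9 members were at least 1.5-fold higher in H3.3 and 7 were at least 2-fold higher, against 63.8% and 50.5% of 17529 genes with a promoter region. None was at most 1/1.5-fold, against 11.8% of all genes. The interval lay above 1 in all 9, against 67.5% of all genes, and below 1 in none, against 15.2%. The median log2 ratio, taken with a pseudocount of 1, was 1.09 over the 9 members and 0.89 over all genes. Leaning to H3.3 is thus common among promoters, and the members differed more in how far they leaned. No label or header states how H3.3 heights were scaled against H3.1/H3.2 heights, and in bulk chromatin a height shared by few cells and a low height in all cells cannot be told apart.

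**Figure D1:**
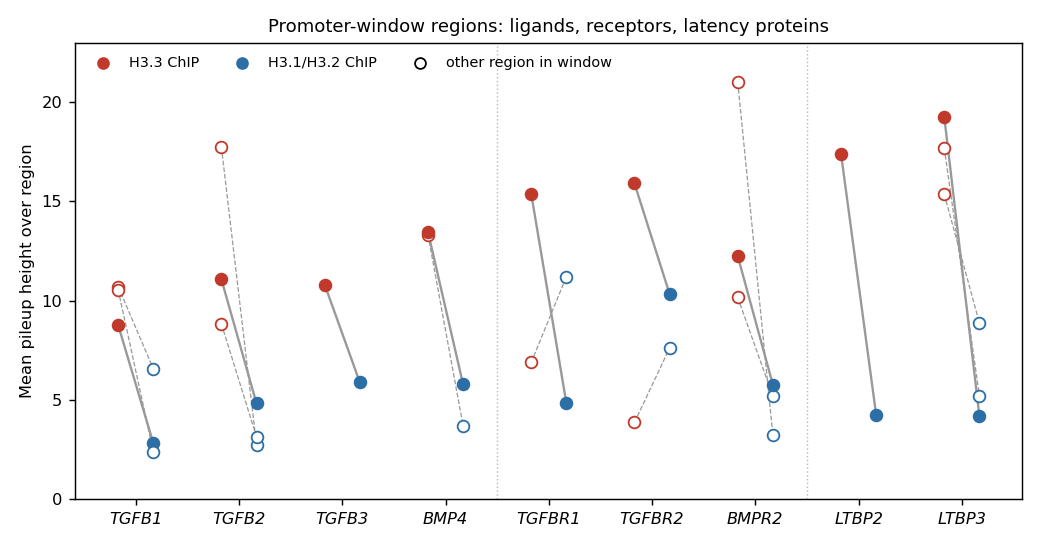
Mean pileup heights (y axis) of every promoter-window region of the 9 members with one, with H3.3 on the left and H3.1/H3.2 on the right of each pair; filled points are the region nearest the start and open points other regions of the window. H3.3 is the higher in every nearest region, and the order turns round in 1 further region each of TGFBR1 and TGFBR2.

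Among the ligands, TGFB1, the most widely expressed TGF-beta, had 3 promoter regions, all called in H3.3 only. The region nearest its start (chromosome 19, 41354200 to 41357599) had a mean height of 8.76 in H3.3 and 2.81 in H3.1/H3.2, 3.12-fold (2.18 to 4.47). The first region inside the gene, which begins 334.5 bases from the start, had 10.7 in H3.3 and 6.56 in H3.1/H3.2, 1.63-fold (1.05 to 2.56). The next one inward had 10.5 in H3.3 and 2.39 in H3.1/H3.2, 4.42-fold (2.33 to 8.59). H3.3 was thus similar in all 3 regions, while H3.1/H3.2 varied, and all 3 are also assigned to B9D2. The regions flanking the gap at the TGFB1 start lie almost equally near, and taking the region with the nearer centre gives 1.63-fold for the gene. By peak height the region nearest the start is at 1.88-fold.

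TGFB2, whose ligand needs betaglycan to bind its receptor well, also had 3 promoter regions, called in H3.3 only. The region over its start (chromosome 1, 218344400 to 218346399) had 11.1 in H3.3 and 4.81 in H3.1/H3.2, 2.30-fold (1.59 to 3.37), and contains the TATA box printed above. The short region that follows (218346600 to 218347199) had 17.7 in H3.3 and 2.72 in H3.1/H3.2, 6.51-fold (3.02 to 17.6). The 3 regions are also assigned to RRP15 and to the antisense transcript TGFB2-AS1.

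TGFB3, known for its role in palate fusion, had 1 promoter region (chromosome 14, 75980200 to 75982599), shared with IFT43. It had 10.8 in H3.3 and 5.88 in H3.1/H3.2, 1.84-fold (1.34 to 2.54). BMP4, a BMP of mesoderm formation and organ patterning, had a region over its start (chromosome 14, 53952600 to 53957399) with 13.5 in H3.3 and 5.78 in H3.1/H3.2, 2.33-fold (1.88 to 2.89). This region is also assigned to MIR5580. An upstream region, centred at -6763 bases, had 13.3 in H3.3 and 3.69 in H3.1/H3.2, 3.61-fold (2.50 to 5.21). The 4 ligands spanned 0.78 to 1.36 on the log2 scale, with a median of 1.07.

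Among the receptors, the type I receptor gene TGFBR1 changed sides within its promoter window. The region over the authors' start (chromosome 9, 99103600 to 99104799) was called in H3.3 only, with 15.4 in H3.3 and 4.84 in H3.1/H3.2, 3.18-fold (2.01 to 5.11). Its highest point stood at 38 in H3.3 and 7 in H3.1/H3.2, 5.43-fold by peak height. The next region (99105600 to 99106399) was called in H3.1/H3.2 only, with 6.88 in H3.3 and 11.2 in H3.1/H3.2, 0.614-fold (0.363 to 1.06, which includes 1). The CpG-rich TGFBR1 sequence printed above lies in the gap between them.

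TGFBR2, the type II receptor that binds TGF-beta first, showed the same order of calls. The region at its start (chromosome 3, 30606600 to 30607599) had 15.9 in H3.3 and 10.3 in H3.1/H3.2, 1.54-fold (1.05 to 2.29), the lowest fold of the 9 members. The region behind it (30608000 to 30609199) was called in H3.1/H3.2 only, with 3.86 in H3.3 and 7.61 in H3.1/H3.2, 0.507-fold (0.288 to 0.887). Summed over both regions TGFBR2 was at 1.06-fold (0.780 to 1.43), and TGFBR1 summed over its regions was at 1.62-fold (1.18 to 2.24). Both TGFBR2 regions are also assigned to LOC105377015. TGFBR1 and TGFBR2 were the 2 of 9 members with promoter regions called in opposite ChIPs, which was so in 8.19% of all genes with a promoter region; this pattern was picked after its values were seen.

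BMPR2, the type II BMP receptor mutated in hereditary pulmonary hypertension, had 3 promoter regions, all called in H3.3 only. The region just inside the gene (chromosome 2, 202376600 to 202377799) had 12.2 in H3.3 and 5.76 in H3.1/H3.2, 2.12-fold (1.37 to 3.38). The region upstream of the start (202375000 to 202375999) had 21.0 in H3.3, the highest H3.3 mean of all 70 regions, and 3.22 in H3.1/H3.2, 6.52-fold (3.81 to 12.8). Its edge lies 311.5 bases from the start against 289.5 for the other, so the gene's value is 6.52-fold when the nearer centre decides, and 3.26-fold summed over its promoter regions. A short region farther upstream had 10.2 in H3.3 and 5.18 in H3.1/H3.2, 1.96-fold (0.853 to 5.05).

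TGFBR3, which encodes betaglycan, the co-receptor that presents TGFB2, had no region in the window of the authors' start. The RefSeq span of the gene begins at the authors' start, but its single listed RefSeq start lies 19851 bases farther into the gene. This listed start falls inside a region with a CpG island (chromosome 1, 91884400 to 91887199) that the authors placed in the gene. That region was called in H3.3 only and had 11.4 in H3.3 and 4.49 in H3.1/H3.2, 2.54-fold (1.85 to 3.52). The TGFBR3 sequence printed above lies within it.

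At the region nearest the start by its edge, both latency proteins had higher mean-height folds than the other 7 members. This order depends on the choice. By nearest centre BMPR2 was at 6.52-fold, and by peak height TGFBR1 was at 5.43-fold. Summed over promoter regions BMPR2, TGFB2 and TGFB1 were above LTBP3. The order also depends on the start used: the region over the RefSeq start of LTBP2 was at 2.90-fold, below TGFBR1 at 3.18-fold. LTBP3, which assists folding and secretion of latent TGF-beta, had a region over its start (chromosome 11, 65558000 to 65563799) with 19.3 in H3.3 and 4.19 in H3.1/H3.2, 4.60-fold (3.74 to 5.73). This region is also assigned to SSSCA1-AS1, SSSCA1 and FAM89B. The region on the gene side had 17.7 in H3.3 and 5.21 in H3.1/H3.2, 3.39-fold (2.68 to 4.37). The most distant one, called in both ChIPs, had 15.4 in H3.3 and 8.88 in H3.1/H3.2, 1.73-fold (1.5 to 2.01). Summed over these promoter regions LTBP3 was at 2.68-fold.

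LTBP2, a matrix protein of elastic fibres that binds fibrillin rather than TGF-beta itself, had a single promoter region (chromosome 14, 74615200 to 74623599). It had 17.4 in H3.3 and 4.25 in H3.1/H3.2, 4.09-fold (3.44 to 4.91), and no CpG island. It is also assigned to LOC101928352. The RefSeq start of LTBP2 lies 6373 bases inward of the authors' start, in a CpG island region the authors placed in the gene, with 15.3 in H3.3 and 5.28 in H3.1/H3.2, 2.90-fold (2.25 to 3.75). By the authors' starts, the LTBP2 and LTBP3 promoter regions stood at percentiles 92.2 and 95.6 of all genes by log2 ratio. The 3 receptors with a promoter region stood at percentiles 38 for TGFBR2, 53.6 for BMPR2 and 80.1 for TGFBR1, and the ligands between 45.4 for TGFB3 and 73.5 for TGFB1. By role, at the authors' starts, the median log2 ratio was 1.89 for the 2 latency proteins, 1.07 for the 4 ligands and 0.97 for the 3 receptors. The ranges of ligands and receptors overlapped. The receptor median was 0.43 over all promoter regions and 1.49 by nearest centre. Receptors were above ligands by nearest centre, at 1.49 and 0.92, and by peak height, at 1.04 and 0.78.

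Over all 20 promoter regions of the members, 17 were called in H3.3 only, 1 in both ChIPs and 2 in H3.1/H3.2 only. The shares over 23465 promoter regions were 56.5%, 23.6% and 19.9%. At least 1.5-fold higher in H3.3 were 18 of the 20, against 58.8% of all promoter regions. The interval of the fold lay above 1 in 17 of the 20, against 60.1% of all promoter regions, and below 1 in 1, against 20.5%. A CpG island lay in 16 of the 20, against 50.8% of all promoter regions.

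Inside the genes, outside the promoter window, every ligand and latency gene was higher in H3.3 when its regions were summed, while receptor genes split. In-gene folds are tags summed over a gene's in-gene regions. In TGFBR3 and LTBP2 these include the region over the listed RefSeq start, which lies outside the window of the authors' start. Of the 10 members, 6 were at least 1.5-fold higher in H3.3, against 42.4% of 10591 genes with in-gene regions, and 2 were at most 1/1.5-fold, against 31.6%. At least 2-fold higher were the same 6, against 33.3% of all genes. TGFB2 and TGFBR2 lay between. The interval was above 1 in 8 members and below 1 in 2, against 47.1% and 39.3% of all genes. The median log2 ratio over members, each taken as the median of its regions, was 1.05, and 0.11 over all genes.

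**Figure D2:**
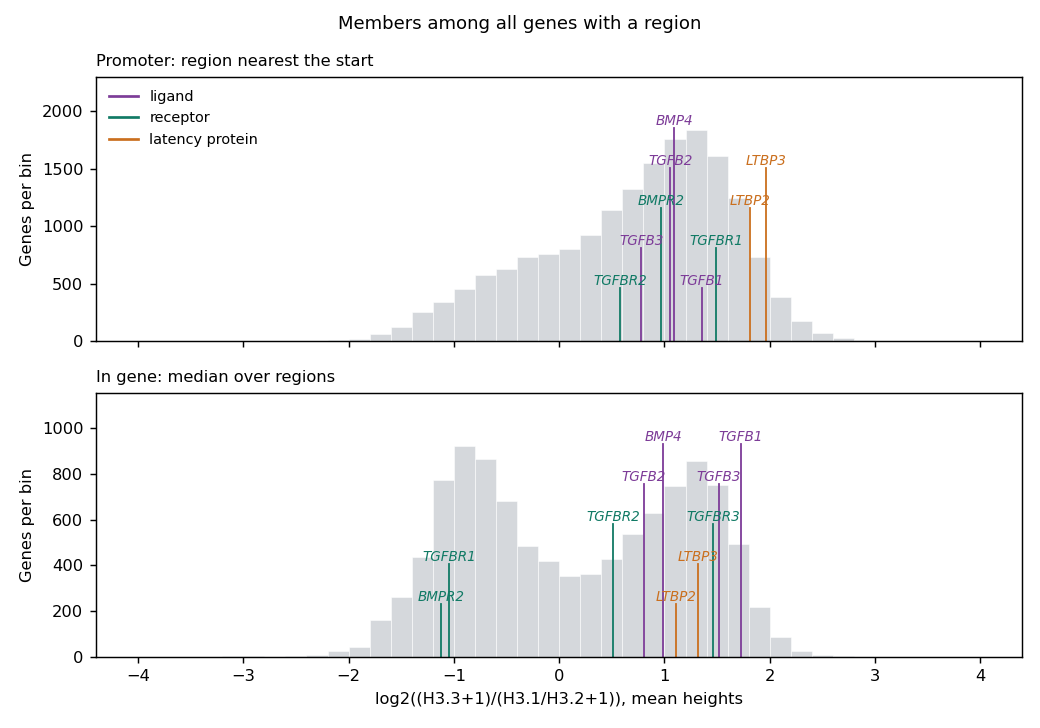
Distribution of the log2 ratio (x axis, pseudocount of 1) over all genes (grey bars, genes per bin of 0.2) at the region nearest the start (top) and as the median of in-gene regions (bottom), with members as lines coloured by role; line heights carry no value. All 9 promoter values lie above 0, and in the lower panel TGFBR1 and BMPR2 lie near the left-hand peak and the other 8 members right of 0.

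Of 46 in-gene regions of the members, 38 were called in H3.3 only, against 34.0% of 44822 in-gene regions. Those called in both numbered 2, against 15.4%, and those called in H3.1/H3.2 only 6, against 50.6%. Of those 6, TGFBR2 holds 3, and TGFB2, TGFBR1 and BMPR2 hold 1 each. The interval of the fold lay above 1 in 38 of the 46 and below 1 in 4, against 32.4% and 44.0% of all in-gene regions.

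**Figure D3:**
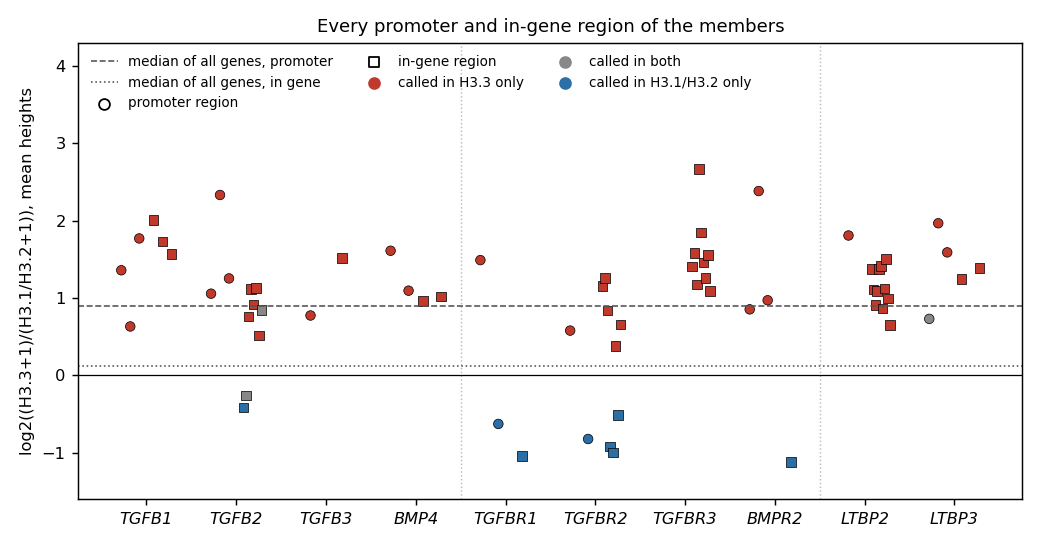
The log2 ratio (y axis, pseudocount of 1) of every promoter region (circles) and in-gene region (squares) of the 10 members, coloured by the ChIP in which the region was called, with the medians of all genes as dashed and dotted lines. The points below 0 belong to TGFB2, TGFBR1, TGFBR2 and BMPR2.

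Among the ligands, TGFB1 had 3 in-gene regions, all called in H3.3 only, with a length-weighted height of 9.75 in H3.3 and 2.53 in H3.1/H3.2, 3.85-fold (2.66 to 5.74). The shortest of them held 8 tags of H3.3 and 1 of H3.1/H3.2, so its own fold of 5.89 has an interval of 1.07 to 355. TGFB3 had 1 in-gene region with 9.79 in H3.3 and 2.77 in H3.1/H3.2, 3.54-fold (2.22 to 6.05). BMP4 had 2, with 14.2 in H3.3 and 6.67 in H3.1/H3.2, 2.13-fold (1.59 to 2.94). In TGFB1 and TGFB3 the in-gene log2 ratio exceeded that of the promoter. Every in-gene region of TGFB1, TGFB3 and BMP4 is also assigned to another gene.

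TGFB2 changed direction among its in-gene regions. Of its 8 in-gene regions, the first, centred 18465 bases from the start, was called in H3.1/H3.2 only, with 6.29 in H3.3 and 8.74 in H3.1/H3.2, 0.720-fold (0.451 to 1.15). The next, centred at 24565 bases and called in both ChIPs, had 6.89 in H3.3 and 8.46 in H3.1/H3.2, 0.815-fold (0.638 to 1.03). Both intervals include 1. The other 6 regions, out to 80165 bases, were higher in H3.3, from 1.5-fold to 2.48-fold, each with an interval above 1. Summed, TGFB2 had 8.14 in H3.3 and 5.68 in H3.1/H3.2, 1.43-fold (1.26 to 1.62).

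Among the receptors, TGFBR3 was the most uniform. All 9 of its in-gene regions, from 5303 to 173603 bases into the gene, were called in H3.3 only. Their mean heights ran from 8.07 to 12.75 in H3.3 and from 1.17 to 4.49 in H3.1/H3.2, without overlap. Summed over the gene TGFBR3 had 10.1 in H3.3 and 3.15 in H3.1/H3.2, 3.2-fold (2.77 to 3.71). The highest fold, 10.9 (2.84 to 101), came from a short region centred at 95803 bases with 1.17 in H3.1/H3.2.

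TGFBR2 had in-gene regions called in H3.3 only and others called in H3.1/H3.2 only. Its 3 in-gene regions centred 20206 to 51106 bases from the start were called in H3.3 only, at 2.57-fold (1.74 to 3.96), 2.73-fold (1.56 to 4.81) and 1.92-fold (1.60 to 2.33). The region at 65806 bases had 6.04 in H3.3 and 12.3 in H3.1/H3.2, 0.489-fold (0.336 to 0.691), and that at 69306 bases had 3.86 in H3.3 and 8.73 in H3.1/H3.2, 0.442-fold (0.295 to 0.636). Behind these, regions called in H3.3 only and in H3.1/H3.2 only followed each other. At 75106 bases the fold was 1.34 (0.918 to 2.01), at 81206 bases 0.659 (0.297 to 1.37) and at 82306 bases 1.66 (1.14 to 2.38). Summed over all 8 regions TGFBR2 had 9.07 in H3.3 and 6.72 in H3.1/H3.2, 1.35-fold (1.2 to 1.51).

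TGFBR1 and BMPR2 each had a single in-gene region, called in H3.1/H3.2 only. In TGFBR1 it lay 41061 bases from the start, with 3.82 in H3.3 and 8.96 in H3.1/H3.2, 0.426-fold (0.273 to 0.665). In BMPR2 it lay 157289 bases from the start, with 2.24 in H3.3 and 6.04 in H3.1/H3.2, 0.371-fold (0.140 to 0.848). The BMPR2 region spans 799 bases of a gene of 191423 bases, and nothing in the table describes the remainder. The receptors' in-gene median log2 ratio of -0.27 rests on these single regions. It is 0.99 over TGFBR2 and TGFBR3, the 2 receptors with more than 1 in-gene region.

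The latency genes were on the H3.3 side throughout. LTBP2 had 11 in-gene regions, all called in H3.3 only, with heights of 8.07 to 17.5 in H3.3 and 3.65 to 8.07 in H3.1/H3.2. The ranges meet at 8.07, in different regions, and in each region H3.3 was the higher. Summed, LTBP2 had 13.0 in H3.3 and 5.09 in H3.1/H3.2, 2.55-fold (2.36 to 2.76). Its highest H3.3 heights inside the gene, 17.5 and 16.2, came from neighbouring regions centred at 46110 and 52010 bases. LTBP3 had 2 in-gene regions with 12.5 in H3.3 and 4.32 in H3.1/H3.2 summed, 2.90-fold (2.50 to 3.37). Of the 4 members with 5 or more in-gene regions, TGFBR3 and LTBP2 had all of them called in H3.3 only, which was so in 9.31% of 3211 such genes; this count too was chosen after its values were seen.

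**Figure D4:**
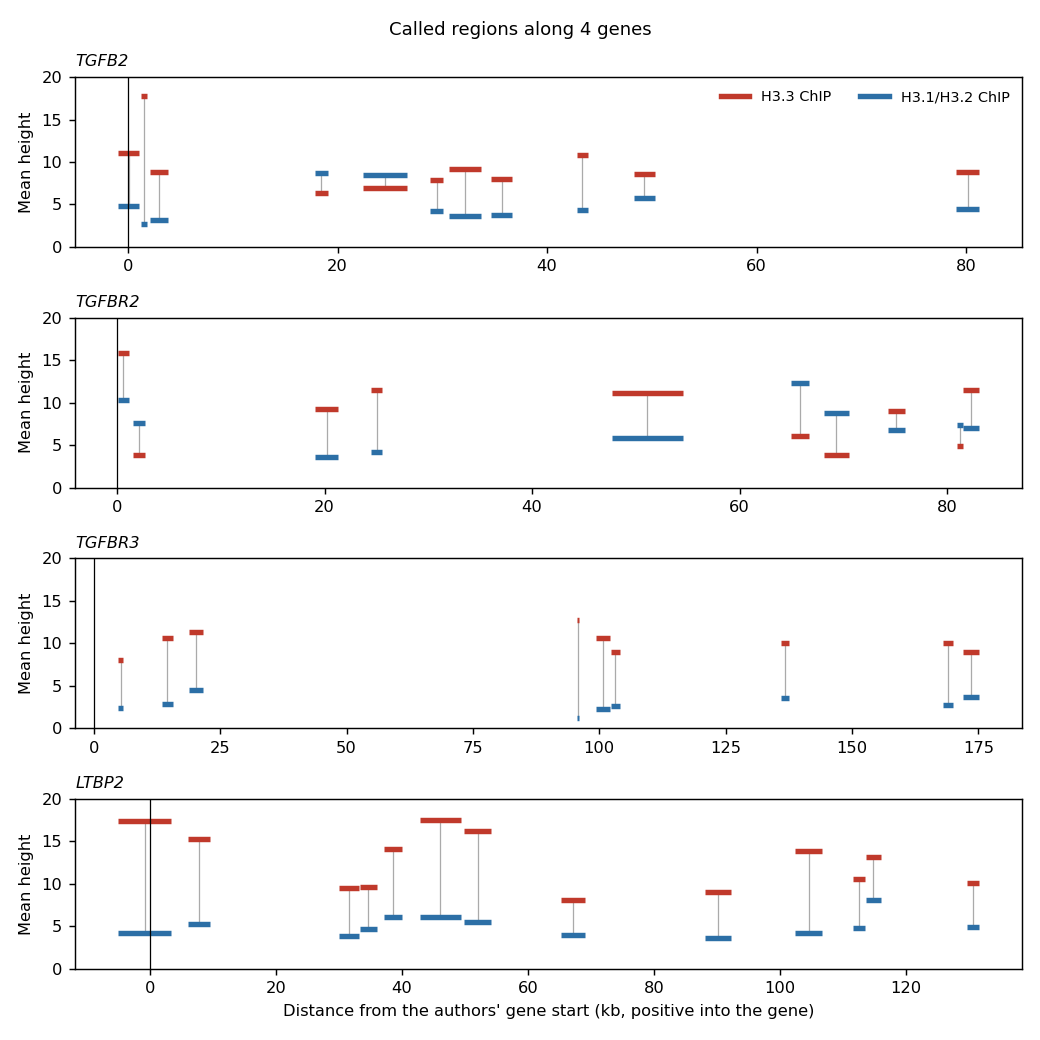
Mean heights (y axis) of called regions along TGFB2, TGFBR2, TGFBR3 and LTBP2 against distance from the authors' gene start (x axis, kb), with bars as wide as the region, H3.3 in red and H3.1/H3.2 in blue. In TGFBR3 and LTBP2 H3.3 is above H3.1/H3.2 in every region, whereas the order turns round within TGFB2 and TGFBR2.

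Within single genes, the promoter log2 ratio exceeded the in-gene median in 7 of the 9 members with both, and in 71.2% of 8110 genes. The difference was largest in TGFBR1 at 2.54 and BMPR2 at 2.09, each against a single in-gene region. It was 0.70 in LTBP2, 0.65 in LTBP3, 0.25 in TGFB2, 0.11 in BMP4 and 0.06 in TGFBR2, and the 2 negative values were -0.37 in TGFB1 and -0.74 in TGFB3. The median difference was 0.25 over the members and 0.49 over all genes. By peak height it was 0.62 over the members and 0.56 over all genes, and with length-weighted in-gene heights 0.60 and 0.47, so which is larger depends on the measure. By role, promoters exceeded in-gene regions in 3 of 3 receptors, 2 of 2 latency proteins and 2 of 4 ligands. This holds for the region nearest the start. Summed over promoter regions, TGFBR2 was at 1.06-fold against 1.35-fold in gene, and LTBP3 at 2.68-fold against 2.90-fold, so their order turned round.

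The members' regions with and without a CpG island differed less than all regions did, a set that includes regions assigned to no gene. The 25 regions with an island had a median height of 12.2 in H3.3 and 4.84 in H3.1/H3.2, with a median log2 ratio of 1.17. The 45 without one had 9.59 in H3.3 and 4.38 in H3.1/H3.2, with 1.09. Over all 67965 regions those medians were 0.92 with an island and -0.22 without. Of the 8 member regions called in H3.1/H3.2 only, 1 held an island, at TGFBR1, against 4.73% of all regions called in H3.1/H3.2 only. In those 8 the median height was 4.35 in H3.3 and 8.74 in H3.1/H3.2, while in the 58 called in H3.3 only it was 10.7 in H3.3 and 4.22 in H3.1/H3.2. Calls and heights come from the same libraries, so the direction of this contrast follows from the grouping and is no separate result.

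The remaining 4 regions lay downstream of TGFB1, BMP4, LTBP2 and LTBP3, and 3 of them are described here. The TGFB1 one spans 14199 bases (chromosome 19, 41315400 to 41329599), is also assigned to HNRNPUL1, CCDC97, LOC105372401 and LOC105372403, and had 13.96 in H3.3 and 3.79 in H3.1/H3.2, 3.68-fold (3.19 to 4.27). Those of BMP4 and LTBP2 were at 1.88-fold and 2.03-fold. In all, 32 of the 70 regions are also assigned to another gene, and their values belong to each of those genes.

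The other genes of the pathway also leaned to H3.3 at their promoters. Of 49 further ligands, receptors, latency or storage proteins and antagonists, 37 had an assigned region and 27 a promoter region. At least 1.5-fold higher in H3.3 were 23 of the 27, against 63.8% of all genes, and none was at most 1/1.5-fold, against 11.8%. Their median log2 ratio was 1.12, beside 1.09 for the members and 0.89 for all genes. By role, 10 of 12 ligands, 4 of 5 receptors, 4 of 5 latency or storage proteins and 5 of 5 antagonists passed 1.5-fold.

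The highest folds among them were at secreted antagonists of activin and at a stress-induced ligand. FST, which encodes follistatin, had 11.0 in H3.3 and 1.57 in H3.1/H3.2, 7.04-fold (3.15 to 18.3), from a region upstream of its start. FSTL3, a relative of follistatin, had 13.1 in H3.3 and 2.40 in H3.1/H3.2, 5.47-fold (3.93 to 7.75). GDF15 had 11.4 in H3.3 and 2.56 in H3.1/H3.2, 4.45-fold (3.51 to 5.67), in a region shared with neighbours. The lowest were FBN2, a fibrillin of microfibrils, with 5.16 in H3.3 and 7.56 in H3.1/H3.2, 0.683-fold (0.438 to 1.06), and GDF9, an oocyte ligand, at 1.09-fold (0.934 to 1.27). AMH, the anti-Müllerian hormone, had 19.3 in H3.3 and 17.4 in H3.1/H3.2, 1.11-fold (1.03 to 1.21), in a long region that covers several other genes.

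**Figure D5:**
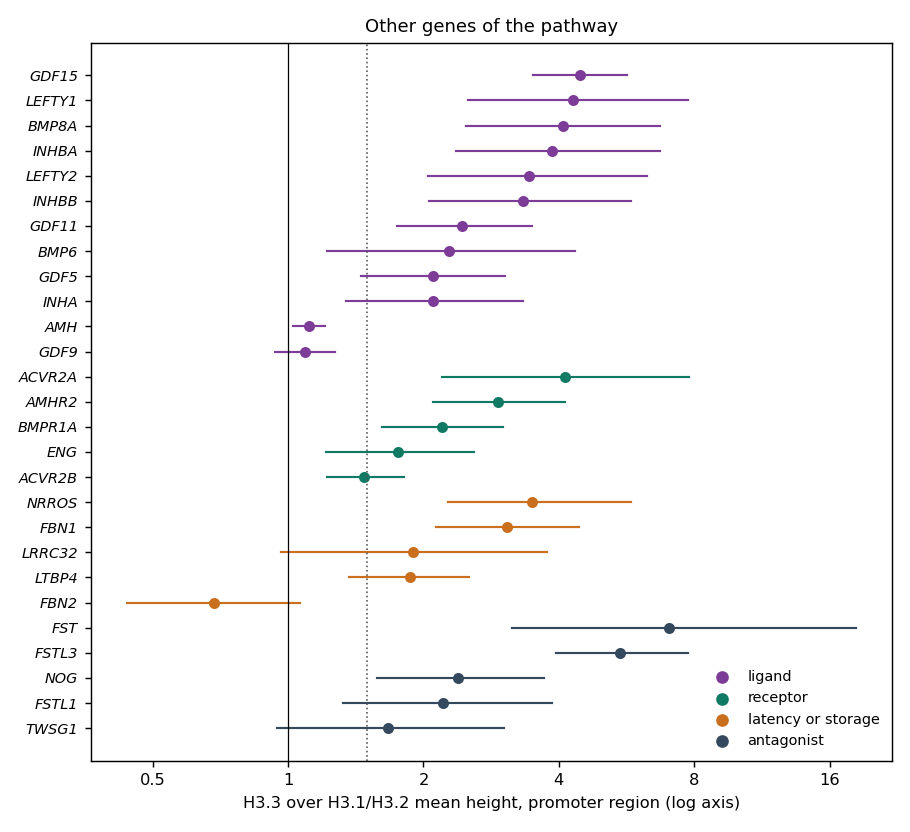
H3.3 over H3.1/H3.2 mean height (x axis, log scale) at the promoter region of the 27 other pathway genes that have one, with 95% counting intervals, grouped by role; the solid line marks 1 and the dotted line 1.5. FBN2 is the only point left of 1, and its interval of 0.438 to 1.06 includes 1.

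Inside genes, 13 of 18 of these other genes with in-gene regions were at least 1.5-fold higher in H3.3, against 42.4% of all genes, and 2 at most 1/1.5-fold, against 31.6%, with a median log2 ratio of 0.97. FBN1, the main fibrillin, resembled TGFBR1 and BMPR2 in having an H3.3-leaning promoter at 3.06-fold (2.14 to 4.43) and an in-gene fold of 0.453, from 1 region. TWSG1 had the same order, at 1.66-fold (0.944 to 3.01) and 0.537, also from 1 in-gene region. BMPR1A and FSTL1 likewise had a promoter above 1 and an in-gene fold below 1, at 0.720 and 0.831. These genes were picked out after their values were seen.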

How the data were processed

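The H3.3 and H3.1/H3.2 ChIP libraries of LM2 cells were deposited as 1 merged region table on hg38, with reads of 75 nt per the labels. BWA and SICER are named in the submitters' processing notes. Per the file headers, the authors gave each region a mean and a peak pileup height in each library, used here as a signal. The authors also deposited a log2 ratio, which equals that of both mean heights, and marks of the ChIP in which a region was called. Scaling between libraries and any use of the input are not stated in the labels or headers.

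From these heights the plain fold and a log2 ratio with a pseudocount of 1 were computed. Estimated tags are height times length divided by 224, the constant implied by the deposited columns. Intervals are exact conditional 95% binomial intervals. Their calculation was checked on simulated independent counts, which cannot show that the estimated tags behave as such counts. Such intervals cover counting error only. A promoter window reaching 7500 bases upstream and 2500 bases into the gene matched the authors' promoter mark in 100% of 36810 single-gene regions. In-gene regions are those the authors placed in a gene, outside that window. Regions on chromosome Y (4) were left out. The values of the region downstream of LTBP3 are not reported here. The promoter value is that of the region with the nearest edge, and "called" past a fold means 1.5-fold unless stated. Starts and upstream bases come from RefSeq on GRCh38.p14, which matched all 10 genes.

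No test was possible with 1 library per antibody. All 10 members are named, and of the other pathway genes the 3 highest and 3 lowest. The members and lists were chosen with earlier results of these data known. Alternatives were pseudocounts of 10 and 0.1, peak height, regions of at least 1000 bases, all promoter regions, regions within 1000 bases of the start, other in-gene averaging, centring and a fold of 2. The nearest centre, and members with 2 or more in-gene regions, were added after seeing the data. Python 3.11.15, pandas 2.3.3 and scipy 1.17.1 were used.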

Additional observations from a re-analysis of the deposited data

How the results depend on the processing

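Of 120 values under the alternatives, 102 kept their direction and moved by no more than the half-width of the counting interval of the middle members (medians), the counting interval (single folds) or 1.5 times (counts). The receptors' in-gene median log2 ratio of -0.27 turned to 0.65 with regions of at least 1000 bases, which drops the only BMPR2 region, and to 0.99 with members that have 2 or more in-gene regions, a setting chosen after seeing the data. A pseudocount of 10, which shrinks every ratio, gave medians of 0.53 for ligands, 0.50 for receptors, 0.99 for latency proteins and 0.55 for all members at promoters, and of 0.58, -0.06, 0.58 and 0.51 in genes. With peak height the latency in-gene median was 1.04. By plain fold, which takes no pseudocount, 9 members were past 1.5-fold at the promoter by peak height, with regions of at least 1000 bases, within 1000 bases of the start, after centring and by nearest centre. With all promoter regions summed 8 were (TGFBR2 at 1.06-fold), and 7 were past a fold of 2. Of the other pathway genes 23 passed 1.5-fold, 21 by peak height and 19 past a fold of 2. Single promoter folds moved, without turning round, for TGFB1, BMP4, TGFBR1, BMPR2, LTBP2 and LTBP3. Centring on the regions called in both ChIPs moved log2 ratios by 0.02. Those regions were picked by calls in the same libraries, so centring cannot check the unstated scaling between them. Short regions limit precision: the sparsest member region holds 9.80 tags over both libraries. No paired analysis was possible because each antibody had 1 library, and for the same reason no library could be left out.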
